A study of Danio rerio with 40 samples.

Results

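fbxo32, tat, arg2 and ucp1 are 4 genes of protein, amino acid and fuel breakdown whose RNA climbed steeply in ethanol-treated zebrafish between 2 and 7 days post fertilization (dpf). They were selected on that climb, their CPM at each age in vehicle animals, and on their change with vitamin D hormone, and are 4 of the 14267 genes of the gene table. Each symbol stood on 1 row of that table. Both the climb and the hormone change of these 4 genes are therefore given as descriptions, with no test. Tests are given for other genes of the same pathways.

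RNA of whole embryos and larvae was sequenced in 40 libraries, 5 in each of 8 groups. All animals were Segrest wild type and were raised in 0.003% phenylthiourea, which blocks pigment. From 24 h after fertilization they were kept either in 300 pM 1α,25-dihydroxyvitamin D3 (VD3, calcitriol, made in the body from vitamin D) or in its solvent ethanol (vehicle), with a medium change every 24 h, and were collected at 2, 4, 6 and 7 dpf. Sets of 25 to 30 animals were pooled for RNA. The labels also mention larvae exposed for 24 h from 6 dpf without marking any library as such, so the length of exposure behind the 6 and 7 dpf groups is not certain. They state neither feeding nor separate clutches, so a p-value measures only the spread between these libraries, which may be technical.

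Total counts per library ranged from 67235165 to 214502251. In every group 1 library was shallower than the rest, at no more than 81298182 counts, against at least 106850887 in the other 32. It is replicate 1 of each vehicle group and replicate 5 of each VD3 group, and is called the shallow library below. It had the lowest level of its group in 8 of 8 groups for ucp1, in 7 for tat, in 7 for arg2 and in 5 for fbxo32. How often it was the lowest over all genes was not counted, so this is not read as a trait of the 4 genes. The log2 fold changes of the 4 genes are therefore also given without the shallow libraries, and their levels with all 5 libraries of a group. Counts per library ran from 177 to 40879 for fbxo32, from 175 to 126504 for tat, from 194 to 81891 for arg2 and from 820 to 505312 for ucp1. Levels are counts scaled to library size (CPM) as mean ± SD over 5 libraries unless stated, log2 fold changes carry ± SE, and levels are not compared between genes because gene lengths were not used.

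A body that runs short of fuel breaks down its own protein and oxidises amino acids and fat. In mammals fbxo32 encodes atrogin-1, the F-box subunit that picks muscle proteins for a ubiquitin ligase, and it is a standard marker of muscle wasting alongside the ring-finger ligase MuRF1 (trim63). tat encodes tyrosine aminotransferase, the first enzyme of tyrosine breakdown, made in liver and induced in mammals by glucocorticoid and glucagon. arg2 encodes the mitochondrial arginase, which splits arginine into ornithine and urea. ucp1 encodes a carrier of the inner mitochondrial membrane that lets protons leak back, known in mammals for heat production in brown fat, a tissue that fish lack.

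All 4 genes had a higher mean level at each later age in vehicle animals, and most of the fold change came before 6 dpf. fbxo32 averaged 2.67 ± 0.47 CPM at 2 dpf, 5.52 ± 2.20 CPM at 4 dpf, 93.0 ± 33.1 CPM at 6 dpf and 214 ± 24 CPM at 7 dpf. tat averaged 3.98 ± 1.18, 20.2 ± 7.1, 168 ± 66 and 286 ± 40 CPM at the same ages. These courses differ in where the rise sat: at 4 over 2 dpf fbxo32 was 2.06-fold higher and tat 5.04-fold, and at 6 over 4 dpf fbxo32 was 16.7-fold higher and tat 8.30-fold. arg2 averaged 5.14 ± 1.56, 29.3 ± 15.1, 265 ± 69 and 465 ± 103 CPM. ucp1 averaged 19.5 ± 5.3, 232 ± 114, 2080 ± 607 and 2994 ± 768 CPM.

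The step between 4 and 6 dpf was the steepest for fbxo32, tat and arg2. Levels at 6 over 4 dpf differed by a log2 fold change of 4.07 ± 0.35 for fbxo32, 3.05 ± 0.31 for tat, 3.17 ± 0.36 for arg2 and 3.16 ± 0.38 for ucp1. Among 13466 genes these stand at ranks 5, 22, 16 and 18. At 4 over 2 dpf the log2 fold change was 3.57 ± 0.38 for ucp1, 2.51 ± 0.37 for arg2, 2.33 ± 0.29 for tat and 1.05 ± 0.26 for fbxo32, or 3.68 ± 0.24, 2.58 ± 0.26, 2.37 ± 0.16 and 1.15 ± 0.22 without the shallow libraries. For ucp1 the order of the first and second steps turned without vehicle replicate 2 of 4 dpf, at 3.31 and 3.42. Without the shallow libraries the 6 over 4 dpf steps were 4.11 ± 0.21, 3.01 ± 0.23, 3.09 ± 0.25 and 3.11 ± 0.19 in the same gene order. At 7 over 6 dpf fbxo32 was still 2.34-fold higher, against 1.74-fold for tat, 1.80-fold for arg2 and 1.47-fold for ucp1, or 2.14, 1.67, 1.80 and 1.45-fold without the shallow libraries. Over the whole course the vehicle level at 7 dpf was 78.6 times that at 2 dpf for fbxo32, 70.8 times for tat, 89.1 times for arg2 and 151 times for ucp1.

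Neighbouring ages of the vehicle course did not always separate. All 5 libraries of the later age lay above all 5 of the earlier age for 3 of the 4 genes at 4 against 2 dpf, where fbxo32 overlapped and 25.7% of all genes tested separated upwards. At 6 against 4 dpf this held for 4 of 4 genes, beside 12.6% of all genes. At 7 against 6 dpf it held for fbxo32 alone, beside 5.22% of all genes, and the other 3 overlapped. Because the course chose the genes, nothing is read from these counts.

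**Figure D1:**
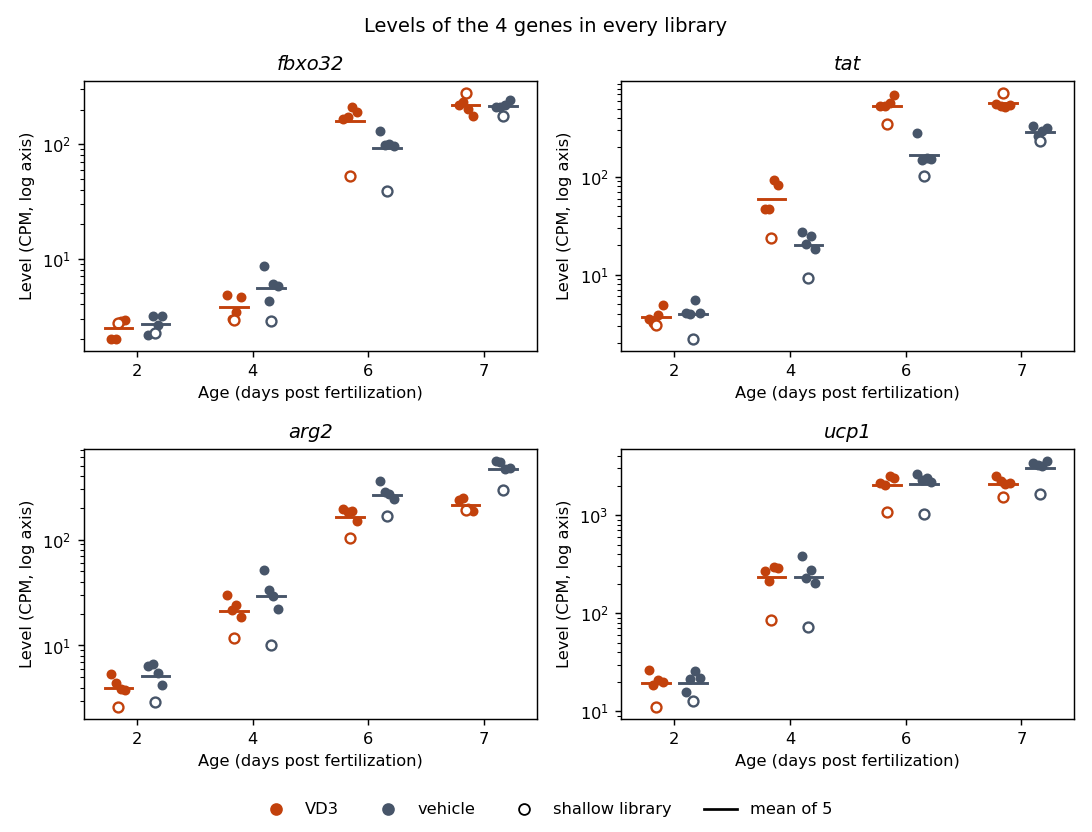
Level of each gene in CPM (log axis) in every library by age in dpf, VD3 libraries left of vehicle libraries at each age. Open points are the shallow libraries and bars are means of 5. The reader should see the climb between 4 and 6 dpf in every panel, tat higher in VD3 at 4, 6 and 7 dpf, and arg2 lower in VD3 at 7 dpf, where 186 to 245 CPM stood against 296 to 550 CPM in vehicle.

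With VD3 the 4 genes parted. tat was higher from 4 dpf on, fbxo32 was higher at 6 dpf and level with vehicle at 7 dpf, arg2 was lower and most so at 7 dpf, and ucp1 was lower at 7 dpf. At 2 dpf the VD3 and vehicle libraries overlapped for all 4 genes, and log2 fold changes were -0.10 ± 0.17 for fbxo32, -0.10 ± 0.21 for tat, -0.36 ± 0.23 for arg2 and -0.01 ± 0.23 for ucp1. Without the shallow libraries they were -0.19 ± 0.18, -0.19 ± 0.16, -0.39 ± 0.17 and 0.02 ± 0.16. That 0 of 4 stands beside 0.204% of all genes separating at 2 dpf in either direction. At 4 dpf it was again 0 of 4 beside 1.75%.

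fbxo32, the ubiquitin ligase subunit, was lower with VD3 at 4 dpf, with overlap, and higher at 6 dpf. At 4 dpf it had 4.83, 3.00, 3.42, 4.64 and 2.91 CPM in VD3 libraries 1 to 5, against 2.85, 8.72, 4.25, 6.02 and 5.77 CPM in vehicle libraries 1 to 5, a log2 fold change of -0.55 ± 0.27, or -0.63 ± 0.23 without the shallow libraries. At 6 dpf it had 166, 173, 211, 191 and 53.1 CPM in VD3 libraries, against 39.0, 130, 98.2, 101 and 97.3 CPM in vehicle libraries. The 4 deep VD3 libraries at 6 dpf all lay above every vehicle library, and the shallow VD3 library lay below all vehicle libraries but the shallow one. The log2 fold change at 6 dpf was 0.79 ± 0.35 with all libraries and 0.80 ± 0.11 without the shallow ones. At 7 dpf it had 220, 233, 203, 176 and 278 CPM in VD3 libraries, against 177, 212, 213, 222 and 245 CPM in vehicle libraries, and the groups lay over each other (0.06 ± 0.12, or -0.09 ± 0.09 without the shallow libraries). Within the VD3 groups the level at 6 dpf was 42.0 times that at 4 dpf, against 16.7 times within the vehicle groups.

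tat, the tyrosine aminotransferase, showed the widest gap of the 4 genes at 4 and 6 dpf. At 4 dpf it had 46.6, 46.8, 93.9, 83.5 and 24.0 CPM in VD3 libraries, against 9.23, 27.5, 20.4, 25.1 and 18.5 CPM in vehicle libraries, and the shallow VD3 library alone fell into the vehicle range. At 6 dpf it had 533, 534, 575, 689 and 344 CPM in VD3 libraries, against 102, 278, 148, 156 and 154 CPM in vehicle libraries. Every VD3 library at 6 dpf lay above every vehicle library, as 3.32% of all genes did. At 7 dpf it had 550, 524, 512, 540 and 715 CPM in VD3 libraries, against 233, 330, 260, 292 and 317 CPM in vehicle libraries, again with no overlap, as for 8.16% of all genes. Log2 fold changes were 1.55 ± 0.36 at 4 dpf, 1.69 ± 0.24 at 6 dpf and 1.00 ± 0.12 at 7 dpf, or 1.57 ± 0.25, 1.67 ± 0.20 and 0.84 ± 0.07 without the shallow libraries. VD3 animals had thus reached 535 ± 124 CPM at 6 dpf and stayed at 568 ± 83 CPM at 7 dpf, above the vehicle level of either age.

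arg2, the mitochondrial arginase, went the other way. At 4 dpf it had 30.0, 21.8, 24.2, 18.5 and 11.7 CPM in VD3 libraries, against 10.1, 51.2, 33.6, 29.4 and 22.2 CPM in vehicle libraries, with wide overlap. At 6 dpf it had 196, 182, 187, 149 and 103 CPM in VD3 libraries, against 168, 360, 282, 269 and 244 CPM in vehicle libraries, and the shallow vehicle library alone lay within the VD3 range. At 7 dpf it had 237, 245, 199, 186 and 191 CPM in VD3 libraries, against 296, 550, 544, 462 and 475 CPM in vehicle libraries. All VD3 libraries at 7 dpf lay below all vehicle libraries, as for 9.96% of all genes, while at 6 dpf none of the 4 genes was separated downwards, beside 6.63% of all genes. Log2 fold changes were -0.46 ± 0.36 at 4 dpf, -0.68 ± 0.20 at 6 dpf and -1.13 ± 0.16 at 7 dpf, or -0.52 ± 0.24, -0.69 ± 0.13 and -1.22 ± 0.10 without the shallow libraries. The level at 7 dpf was 1.32 times that at 6 dpf in VD3 animals and 1.80 times in vehicle animals.

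ucp1, the uncoupling carrier, matched vehicle until 6 dpf. At 4 dpf its level was 232 ± 89 CPM in VD3 animals and 232 ± 114 CPM in vehicle animals, a log2 fold change of 0.00 ± 0.40, or -0.01 ± 0.19 without the shallow libraries. At 6 dpf it had 2103, 2029, 2513, 2397 and 1086 CPM in VD3 libraries, against 1034, 2594, 2252, 2364 and 2156 CPM in vehicle libraries (-0.02 ± 0.25, or -0.05 ± 0.09 without the shallow libraries). The shallow libraries of both arms stood at roughly the same low level there. At 7 dpf it had 2527, 2234, 2075, 2125 and 1515 CPM in VD3 libraries, against 1651, 3429, 3214, 3140 and 3536 CPM in vehicle libraries. The 4 deep VD3 libraries at 7 dpf lay below the 4 deep vehicle libraries and above the shallow one, and the log2 fold change was -0.51 ± 0.19, or -0.56 ± 0.07 without the shallow libraries.

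The numbers of the exon table pair each VD3 library with a vehicle library, the shallow with the shallow, and these pairs deviated together at 2, 4 and 6 dpf and in 4 of 5 pairs at 7 dpf. Within pairs the VD3 library was higher in 5 of 5 for fbxo32 at 6 dpf (1.28 to 2.10 times) and for tat at 4, 6 and 7 dpf (1.69 to 4.51, 1.91 to 4.48 and 1.67 to 3.07 times). It was lower in 5 of 5 for arg2 at 2, 6 and 7 dpf (0.667 to 0.896, 0.546 to 0.695 and 0.392 to 0.644 times) and for ucp1 at 7 dpf (0.601 to 0.918 times). At 4 dpf fbxo32 and arg2, and at 2 dpf ucp1, were lower in 4 of 5 pairs. The other combinations of gene and age had 2 or 3 pairs in each direction. How many of all genes had 5 of 5 pairs on 1 side was not counted. The 4 genes were also chosen on this change, so nothing is read from these pair counts.

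**Figure D2:**
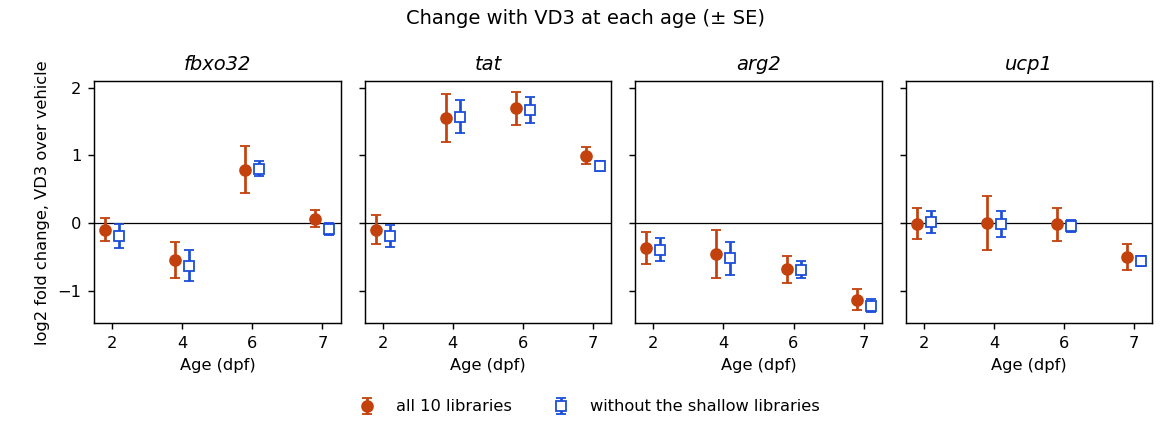
Log2 fold change of VD3 over vehicle (± SE) for each gene by age in dpf, with all 10 libraries (filled) and without the shallow libraries (open). tat sits above 0 from 4 dpf, arg2 goes down to -1.13 at 7 dpf, fbxo32 is at 0.79 at 6 dpf and 0.06 at 7 dpf, and ucp1 leaves 0 at 7 dpf.

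The exon table shows the change with VD3 at the exons it lists, which hold only part of the counts of each gene. It lists 4 exon rows of fbxo32 between 27499463 and 27511177 on chromosome 16 and 5 of tat between 12640430 and 12651191 on chromosome 18. For arg2 it lists 4 between 33248148 and 33255612 on chromosome 13. For ucp1 it lists 3 between 53870170 and 53877587 on chromosome 1, 2 of them with counts. Of the tat rows 2 share the interval 12651107 to 12651191, with start and end in opposite order and different counts, so they are not separate exons. The gene table carries scaffold names of the assembly Zv9, and these coordinates are taken to be on it. At 7 dpf the median count relative to library total over VD3 libraries was 1.82 to 2.68 times that over vehicle libraries across tat exons, 0.449 to 0.484 times across arg2 exons, 0.744 to 0.776 times across ucp1 exons and 1.15 to 1.23 times across fbxo32 exons. At 6 dpf these ranges were 3.58 to 4.21 for tat, 0.604 to 0.725 for arg2, 0.909 to 0.958 for ucp1 and 1.83 to 1.90 for fbxo32. These ratios carry no TMM factors. At both ages all exon rows with counts of a gene stood on the same side of 1. For fbxo32 at 7 dpf they stood above 1 although its gene-level log2 fold change was 0.06 ± 0.12, or -0.09 ± 0.09 without the shallow libraries. At 4 dpf the ranges were 1.92 to 4.12 for tat and 0.414 to 0.875 for fbxo32, while the exons of arg2 (0.708 to 1.08) and ucp1 (from 0.922) stood on both sides of 1.

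Genes whose course over the 8 groups was nearest, by the root mean square difference of log2 levels after centring each gene, were tceb3 (0.26), dysfip1 (0.54) and arg2 (0.86) for fbxo32, among 8733 genes. For tat they were crygm2c (0.40), igfbp1b (0.47) and tdo2b (0.55). For arg2 they were grn2 (0.39), dysfip1 (0.44) and ucp1 (0.54), and for ucp1 they were pdk2 (0.18), tdo2b (0.27) and c6ast3 (0.37). Among themselves arg2 and ucp1 ran closest over the 8 groups and fbxo32 and tat were 1.06 apart. Over the 4 vehicle groups alone tat and arg2 were each other's nearest gene, at 0.145. That course chose the genes, so nothing is read from this likeness.

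Other genes of the same pathways were tested, on 7 lists holding 203 symbols, of which 159 were in the table, 25 of them under an older symbol. Adjusted p-values are from edgeR's quasi-likelihood test with Benjamini-Hochberg adjustment over all genes, called under 0.05. In vehicle animals the 7 lists together had more genes called higher than lower at each step. At 4 against 2 dpf 100 of 158 list genes were higher and 23 lower, beside 32.1% and 30.2% of all genes. At 6 against 4 dpf 69 were higher and 22 lower, beside 18.1% and 17.8% of all genes, and at 7 against 6 dpf 25 were higher and 9 lower, beside 7.10% and 4.92%. Scaled by library totals alone these splits were 112 to 10, 46 to 39 and 20 to 17. Over all genes they were then 5409 to 2587, 1304 to 5432 and 572 to 1342. With TMM factors single lists departed from the joint count. F-box partners had 5 higher and 8 lower at 4 against 2 dpf. Carriers had 4 and 4 at 6 against 4 dpf, and arginine genes 0 and 4 at 7 against 6 dpf. With VD3 0 of 156 list genes passed at 2 dpf, where 0.00757% of all genes did, and 3 had an unadjusted p under 0.05. At 4 dpf 0 of 158 list genes passed, as did 0% of all genes, with unadjusted p under 0.05 for 15 list genes and 924 genes in all. By DESeq2 the calls were 5 list genes and 103 genes in all at 4 dpf, and by limma voom with quality weights 2 and 30. Libraries with equal numbers in the exon table deviated together, and edgeR with these numbers as a replicate block called 25 list genes and 1255 genes in all at 4 dpf. Of the 42 genes named here 13 passed at 4 dpf in that blocked fit, among them pparaa (-0.87, adjusted p = 3.72e-05), foxo3a (-0.47, adjusted p = 0.000149), lpl (-0.55, adjusted p = 0.000711) and fbp1a (-0.39, adjusted p = 0.00188), which are described below.

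At the later ages with VD3 more list genes were called lower than higher, and most were not called. At 6 dpf 11 of 158 list genes were higher and 31 lower, or 6.96% and 19.6%, beside 4.37% and 6.32% of all genes. At 7 dpf 18 were higher and 58 lower, or 11.4% and 36.7%, beside 14.6% and 14.2%. Without the shallow libraries the number called at 6 dpf was 88, and with the replicate block on exon table numbers it was 83, against 42 here. Scaled by library totals alone, list genes split into 27 higher and 22 lower at 6 dpf and 37 higher and 42 lower at 7 dpf. That scaling put the median over all genes at 0.14 (log2) at 6 dpf and 0.18 at 7 dpf, where TMM gives 0.02 and 0.01, and of all genes called 74.0% were higher at 6 dpf and 78.2% at 7 dpf, against 40.9% and 50.8%. The test of a difference in VD3 response between ages passed for 33 of 158 list genes (20.9%) and for 7.79% of all 13650 genes tested.

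The muscle ligases next to fbxo32 rose with it at 6 dpf. trim63a and trim63b, the MuRF1 genes, stand in the table under older symbols. trim63a had 321, 328, 363, 359 and 174 CPM in VD3 libraries at 6 dpf, against 136, 188, 171, 161 and 156 CPM in vehicle libraries, a log2 fold change of 0.94 ± 0.17 (adjusted p = 0.00499). The shallow VD3 library alone lay within the vehicle range of trim63a. trim63b had 133 ± 20 CPM in VD3 and 77.0 ± 6.3 CPM in vehicle animals at 6 dpf, with every VD3 library above every vehicle library (0.80 ± 0.11, adjusted p = 0.000663). At 7 dpf neither passed, at 0.22 ± 0.14 for trim63a and 0.42 ± 0.17 for trim63b (edgeR adjusted p = 0.242 and 0.0859), though both did with library totals alone as scaling (0.0255 and 0.0125), and trim63b also without VD3 replicate 4 (0.0147). Whether their response differed between ages did not pass either (adjusted p = 0.0515 for trim63a and 0.115 for trim63b). As fbxo32 did, both rose in the vehicle course at 6 against 4 dpf, by a log2 fold change of 2.03 ± 0.11 for trim63a and 1.02 ± 0.12 for trim63b (adjusted p = 2.33e-06 and 0.000153). fbxo25, the closest relative of fbxo32, did not pass with VD3 at any age (-0.09 ± 0.10 at 7 dpf, adjusted p = 0.516), though it did at 7 dpf with voom (-0.19, adjusted p = 0.0276).

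Of the 18 F-box and ubiquitin ligase partners tested, 4 were higher (22.2%) and 1 lower (5.56%) with VD3 at 6 dpf, beside 4.37% and 6.32% of all genes. trim63a and trim63b are on this list and among its higher calls at 6 dpf. At 7 dpf 6 were higher (33.3%) and 2 lower (11.1%), beside 14.6% and 14.2% of all genes. Scaled by library totals alone the splits were 10 to 1 and 13 to 2. The list's median log2 fold change at 7 dpf was 0.23, beside 0.01 for all genes. ubb, which encodes polyubiquitin, rose at 6 dpf (0.71 ± 0.10, adjusted p = 0.000993) and at 7 dpf (0.62 ± 0.09, adjusted p = 0.000665). ube2d2, a ubiquitin-conjugating enzyme, rose at 7 dpf (0.48 ± 0.12, adjusted p = 0.00979). Against them fbxo40.1, an F-box relative known from muscle in mammals, fell to 2.52 ± 0.38 CPM in VD3 animals at 7 dpf, against 6.29 ± 0.79 CPM in vehicle animals (-1.31 ± 0.13, adjusted p = 4.28e-05). klf15, on the same list but a transcription factor that drives amino acid breakdown in mammals, fell at 7 dpf (-0.68 ± 0.16, adjusted p = 0.00703). Muscle markers are measured in the same libraries. Of 18 tested, 0 were higher and 5 lower (27.8%) at 6 dpf, beside 6.32% of all genes lower. At 7 dpf 0 were higher and 8 lower, beside 14.2% of all genes lower. Scaled by library totals alone the splits were 0 to 4 and 1 to 6. Their summed level at 6 dpf was 118238 to 137826 CPM in VD3 and 145367 to 156724 CPM in vehicle libraries. At 7 dpf it was 97205 to 132973 CPM in VD3 and 136703 to 153781 CPM in vehicle libraries, with none at 0. Their part in these results was not tested. In whole animals fewer cells of a type and less RNA per cell cannot be told apart.

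The list of FoxO factors, which switch on fbxo32 in mammalian muscle, and autophagy genes held calls in both directions. Of 25 tested, 3 were higher (12%) and 2 lower (8%) at 6 dpf, beside 4.37% and 6.32% of all genes. At 7 dpf 3 were higher (12%) and 6 lower (24%), beside 14.6% and 14.2% of all genes. Scaled by library totals alone the splits were 5 to 1 and 7 to 5. foxo3a fell in VD3 animals to 129 ± 13 CPM at 6 dpf, against 247 ± 13 CPM in vehicle animals, and to 96.0 ± 17.1 CPM at 7 dpf, against 240 ± 23 CPM (-1.31 ± 0.12, adjusted p = 1.98e-05). foxo1b, at a low level, rose to 9.02 ± 2.77 CPM at 6 dpf, against 4.48 ± 0.98 CPM in vehicle animals (1.02 ± 0.23, adjusted p = 0.0162). foxo1a and foxo3b are on the list too, and their changes are not given here. The sestrins sesn1 and sesn2, stress-induced regulators of growth signalling, moved apart. sesn2 rose to 31.5 ± 15.1 CPM in VD3 animals at 7 dpf, against 5.83 ± 0.63 CPM in vehicle animals (2.44 ± 0.33, adjusted p = 0.000278). sesn1 fell to 360 ± 73 CPM, against 858 ± 110 CPM (-1.24 ± 0.14, adjusted p = 0.000101). Vehicle animals had raised sesn1 with age and lowered sesn2 between 4 and 6 dpf.

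The enzymes after tat in tyrosine breakdown fell at 7 dpf while tat stood higher. All 5 that were tested passed downwards at 7 dpf, when 14.2% of all genes did. hpdb, a 4-hydroxyphenylpyruvate dioxygenase acting right after tat, had 116 ± 11 CPM in VD3 and 159 ± 8 CPM in vehicle animals (-0.46 ± 0.08, adjusted p = 0.00169). hgd, homogentisate dioxygenase, had 96.8, 97.1, 92.0, 93.6 and 81.2 CPM in VD3 libraries at 7 dpf, against 124, 185, 163, 163 and 172 CPM in vehicle libraries, a log2 fold change of -0.80 ± 0.10 (adjusted p = 0.000235) with no overlap. gstz1, maleylacetoacetate isomerase, changed by -0.81 ± 0.09 (adjusted p = 5.12e-05) and fah, which completes the route, by -0.55 ± 0.09 (adjusted p = 0.00136). The second dioxygenase gene hpda changed by -0.54 ± 0.18 (adjusted p = 0.0411). Its call was lost in 1 fit of all 40 libraries (0.264) and under library totals alone (0.102). It was also lost under the exon table block (0.0713) and with the label numbers as a block (0.0542). The same held without any 1 of VD3 replicates 1 to 4 or vehicle replicates 2 to 5 (0.0619 to 0.0964). pah, which makes tyrosine from phenylalanine, did not pass at 7 dpf (0.02 ± 0.08, adjusted p = 0.891). At 6 dpf pah was at 0.35 ± 0.10 (adjusted p = 0.0526) and passed upwards with the exon table replicate block (0.0106), without the shallow libraries (0.00721), without VD3 replicate 5 (0.0079) or vehicle replicate 2 (0.0387), in 1 fit of all libraries (0.00861), by DESeq2 (0.0194) and voom (0.00137), and scaled by library totals alone (0.0132).

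At 6 dpf 3 of these 5 enzymes passed downwards, hpdb, hgd and gstz1, at log2 fold changes of -0.37 ± 0.09, -0.49 ± 0.14 and -0.37 ± 0.09 (edgeR adjusted p = 0.0214, 0.046 and 0.0265). Of all genes 6.32% passed downwards at 6 dpf. With the exon table replicate block fah passed too (-0.23, adjusted p = 0.0146). None of the 3 calls held under every library left out, nor scaled by library totals alone (0.0906 to 0.0952). In 1 fit of all 40 libraries hpdb was lost (0.0721). With the label numbers as a block hgd (0.0734) and gstz1 (0.0706) were lost. hgd had 77.4, 72.8, 73.4, 71.0 and 58.2 CPM in VD3 libraries at 6 dpf, against 75.0, 138, 99.6, 99.5 and 87.1 CPM in vehicle libraries. Its adjusted p was 0.0527 to 0.0942 without any 1 of VD3 replicates 1 to 5 or vehicle replicates 2 to 5. hpdb lost its call without vehicle replicate 2, 3 or 4 or VD3 replicate 4 (0.0531 to 0.0606), and gstz1 without vehicle replicate 2 or 4 or VD3 replicate 2 or 4 (0.0509 to 0.0696). In the vehicle course all 5 rose with tat at 4 against 2 dpf, beside 32.1% of all genes. At 6 against 4 dpf 4 of 5 rose again, beside 18.1% of all genes.

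**Figure D3:**
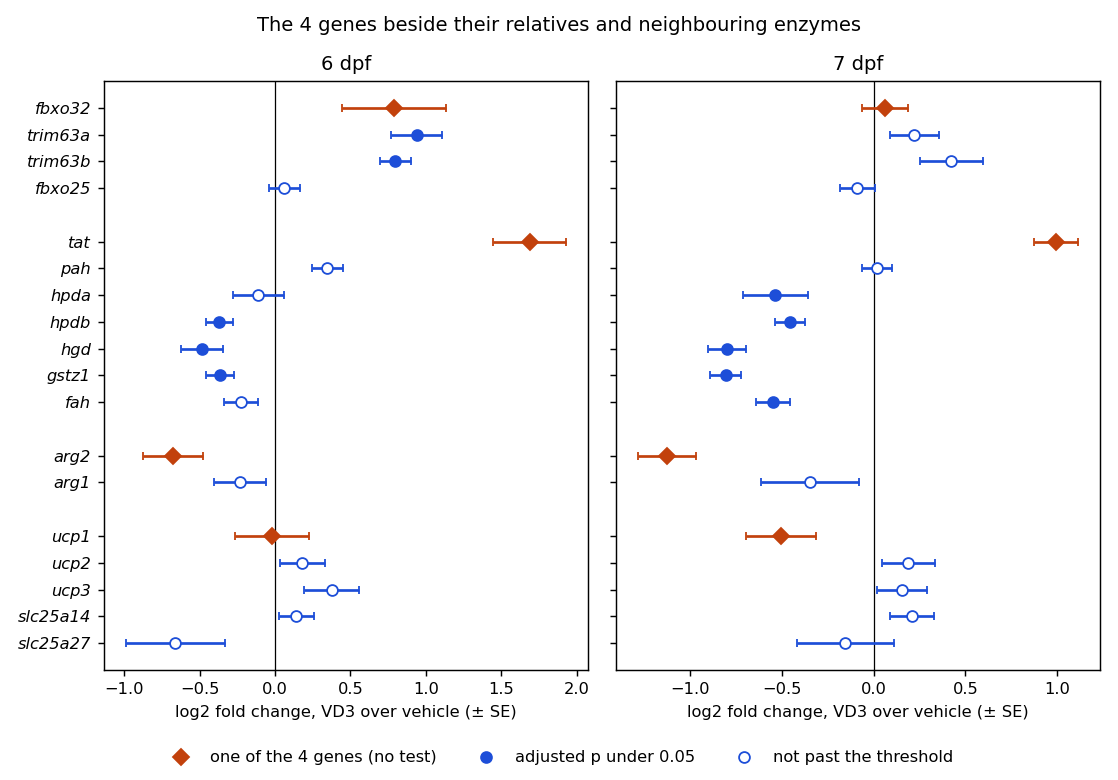
Log2 fold change of VD3 over vehicle (± SE) at 6 and 7 dpf for each of the 4 genes (diamonds) above its relatives or neighbouring enzymes (circles, filled where the adjusted p is under 0.05). trim63a and trim63b follow fbxo32 to the right at 6 dpf, and at 7 dpf tat is at 1.00 while hpda, hpdb, hgd, gstz1 and fah lie between -0.81 and -0.46.

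The wider amino acid breakdown list includes hpda, hpdb, hgd, gstz1, fah and pah. Of its 30 genes tested 0 were higher and 9 lower (30%) at 6 dpf, beside 4.37% and 6.32% of all genes. At 7 dpf 2 were higher (6.67%) and 19 lower (63.3%), beside 14.6% and 14.2% of all genes, with a median log2 fold change of -0.41. The 5 enzymes after tat supply 3 of the 9 lower calls at 6 dpf and 5 of the 19 at 7 dpf. Scaled by library totals alone the splits were 3 to 5 and 4 to 12. Genes of the kynurenine route of tryptophan breakdown were among the lower calls, named for the size of their change in these same libraries. tdo2a, a gene for the entry enzyme tryptophan dioxygenase, fell to 27.3 ± 3.6 CPM in VD3 animals at 7 dpf. Vehicle animals had 59.0 ± 2.6 CPM (-1.10 ± 0.09, adjusted p = 1.15e-05). tdo2b, another tryptophan dioxygenase gene, is on the list too, and its change with VD3 is not given here. kmo and haao, which act further down, changed by -0.88 ± 0.13 and -1.19 ± 0.14 (edgeR adjusted p = 0.000476 and 0.000108). aldh4a1, the second enzyme of proline breakdown, changed by -0.75 ± 0.08 (adjusted p = 4.56e-05). Many of these enzymes are made in liver, and liver markers moved with them. Of 18 markers 0 were higher and 16 lower at 7 dpf, when 14.2% of all genes were lower. Scaled by library totals alone the liver markers split 1 to 14. Their summed level was 2313 to 3438 CPM in VD3 and 4711 to 5739 CPM in vehicle libraries at 7 dpf, and 2881 to 6004 CPM against 5836 to 8371 CPM at 6 dpf, with none at 0. tat was higher in the same libraries. The part of the liver markers in these changes, that of tat included, was not tested.

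Around arg2 the change was uneven. Of 19 tested genes of arginine, urea and polyamine metabolism, 0 were higher and 4 lower (21.1%) at 6 dpf, beside 4.37% and 6.32% of all genes. At 7 dpf 4 were higher (21.1%) and 6 lower (31.6%), beside 14.6% and 14.2% of all genes. Scaled by library totals alone the splits were 2 to 4 and 4 to 4. arg1, the cytosolic arginase, was scarce, at 0.885 ± 0.184 CPM in VD3 and 1.13 ± 0.39 CPM in vehicle animals at 7 dpf, and did not pass (-0.35 ± 0.27, adjusted p = 0.361). It passed without the shallow libraries (-0.41, adjusted p = 0.021), without vehicle replicate 1 (0.0424) and with voom (0.0181). odc1, which turns the ornithine made by arginase into putrescine, rose to 229 ± 74 CPM in VD3 animals at 7 dpf, against 84.9 ± 22.8 CPM in vehicle animals (1.44 ± 0.24, adjusted p = 0.00121). agmat, which makes putrescine from agmatine, fell to 4.75 ± 0.71 CPM, against 14.3 ± 0.4 CPM (-1.58 ± 0.10, adjusted p = 1.78e-06). sat1a.1, an acetylating enzyme of polyamine removal, changed by -1.22 ± 0.11 (adjusted p = 1.89e-05), and gamt, the last enzyme of creatine synthesis, by -0.90 ± 0.08 (adjusted p = 1.95e-05). Each of the 4 also passed the test of a response differing between ages (adjusted p = 0.0163 for odc1, 9.9e-06 for agmat, 5.22e-06 for sat1a.1 and 5.44e-05 for gamt). All 4 were named for the size of their VD3 change in these same libraries.

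The uncoupling relatives of ucp1 were not called with VD3 by edgeR's test over the 10 libraries of an age without a block. ucp2, ucp3, slc25a14 and slc25a27 did not pass there at any age, and at 7 dpf their log2 fold changes were 0.19 ± 0.15, 0.16 ± 0.14, 0.21 ± 0.12 and -0.16 ± 0.26 (edgeR adjusted p = 0.36, 0.419, 0.212 and 0.696). With the exon table replicate block ucp3 passed at 6 dpf (0.35, adjusted p = 0.00621), as it did without the shallow libraries (0.0028), without VD3 replicate 5 (0.0176) and with voom (0.00786). Without the shallow libraries slc25a14 passed upwards at 7 dpf (0.25, adjusted p = 0.00342) and slc25a27 downwards at 6 dpf (-0.77, adjusted p = 0.0419). slc25a14 also passed without VD3 replicate 5 (0.0124), with voom (0.00356) and scaled by library totals alone (0.0283), and slc25a27 without VD3 replicate 5 of 6 dpf (0.0366). In the vehicle course 3 of these 4 relatives were higher and 0 lower at 4 against 2 dpf, beside 32.1% and 30.2% of all genes. At 6 against 4 dpf 2 were higher and 1 lower, beside 18.1% and 17.8%, and at 7 against 6 dpf 0 were called. Among them ucp3 rose as ucp1 did, at 3.15 ± 0.54 for 4 against 2 dpf and 2.10 ± 0.35 for 6 against 4 dpf (adjusted p = 0.000277 and 0.000928). Of the 15 inner membrane carriers on the list, 1 was higher (6.67%) and 5 lower (33.3%) at 7 dpf, beside 14.6% and 14.2% of all genes. Scaled by library totals alone the split was 3 to 4. slc25a3a, a phosphate carrier, fell to 15.4 ± 6.1 CPM, against 36.4 ± 3.4 CPM in vehicle animals (-1.24 ± 0.22, adjusted p = 0.00181). slc25a20, which brings acylcarnitines in for fat oxidation, changed by -0.78 ± 0.08 (adjusted p = 2.46e-05), and the ADP/ATP carriers slc25a4 and slc25a6 by -0.52 ± 0.09 and -0.58 ± 0.13 (adjusted p = 0.00198 and 0.00615).

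The list named for fasting itself fell with VD3. Of 25 lipid and glucose genes tested, 1 was higher and 9 lower at 6 dpf. At 7 dpf 0 were higher and 16 lower (64.0%), with a median log2 fold change of -0.46. Of all genes 6.32% were lower at 6 dpf and 14.2% at 7 dpf. Scaled by library totals alone the splits were 1 to 6 and 0 to 12, with a median of -0.29 at 7 dpf. pparaa, a receptor that turns on fat oxidation during fasting in mammals, fell to 24.4 ± 1.0 CPM in VD3 animals at 7 dpf, against 56.8 ± 2.2 CPM in vehicle animals (-1.21 ± 0.06, adjusted p = 2.89e-07). fbp1a, an enzyme of glucose synthesis, changed by -1.18 ± 0.10 (adjusted p = 7.82e-06), lpl, which releases fatty acids from lipoproteins, by -1.26 ± 0.12 (adjusted p = 2.94e-05), and gcga, a glucagon precursor, by -1.43 ± 0.23 (adjusted p = 0.000869). Of the intestine and pronephros markers 10 of 16 were lower and 0 higher at 7 dpf, or 8 and 1 scaled by library totals alone. They summed to 1325 to 1448 CPM in VD3 and 2456 to 3010 CPM in vehicle libraries. Their part was not tested.

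Glucocorticoid induces tat and fbxo32 in mammals. Of 26 tested genes of its axis and response, 2 were higher (7.69%) and 2 lower (7.69%) at 6 dpf, beside 4.37% and 6.32% of all genes. At 7 dpf 2 were higher (7.69%) and 4 lower (15.4%), beside 14.6% and 14.2% of all genes, with a median of 0.01. The list pools genes of the hormone axis with genes that respond to it, so these shares do not measure the response. Its part in these results was not tested. Scaled by library totals alone the splits were 5 to 1 and 6 to 3. The genes named next were taken by the size of a called VD3 change in these same libraries. Other genes of the list, fkbp5, tsc22d3, per1a, sgk1 and dusp1 among them, are not described here. klf9, a transcription factor gene on the list, fell to 204 ± 53 CPM in VD3 animals at 7 dpf. Vehicle animals had 321 ± 12 CPM (-0.64 ± 0.16, adjusted p = 0.0119). That call was lost in 1 fit of all 40 libraries (0.401). At 6 dpf klf9 passed with voom alone (-0.22, adjusted p = 0.0386). crh, which starts the stress hormone cascade, changed by -0.85 ± 0.21 (adjusted p = 0.0103) and cyp17a1, a steroid-making enzyme, by -0.85 ± 0.16 (adjusted p = 0.00257). zbtb16a, another transcription factor gene on the list, rose by 0.34 ± 0.11 (adjusted p = 0.0372). That call was lost without vehicle replicate 4 or 5 or VD3 replicate 1, 3 or 4 (0.0534 to 0.092). It was also lost in 1 fit of all 40 libraries (0.0721) and with the label numbers as a block (0.0928). Macrophage and neutrophil markers showed 2 of 12 higher (16.7%) and 0 lower at 7 dpf, beside 14.6% and 14.2% of all genes. Scaled by library totals alone the split was 4 to 0. Their summed levels were 154 to 322 CPM in VD3 and 141 to 306 CPM in vehicle libraries.

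**Figure D4:**
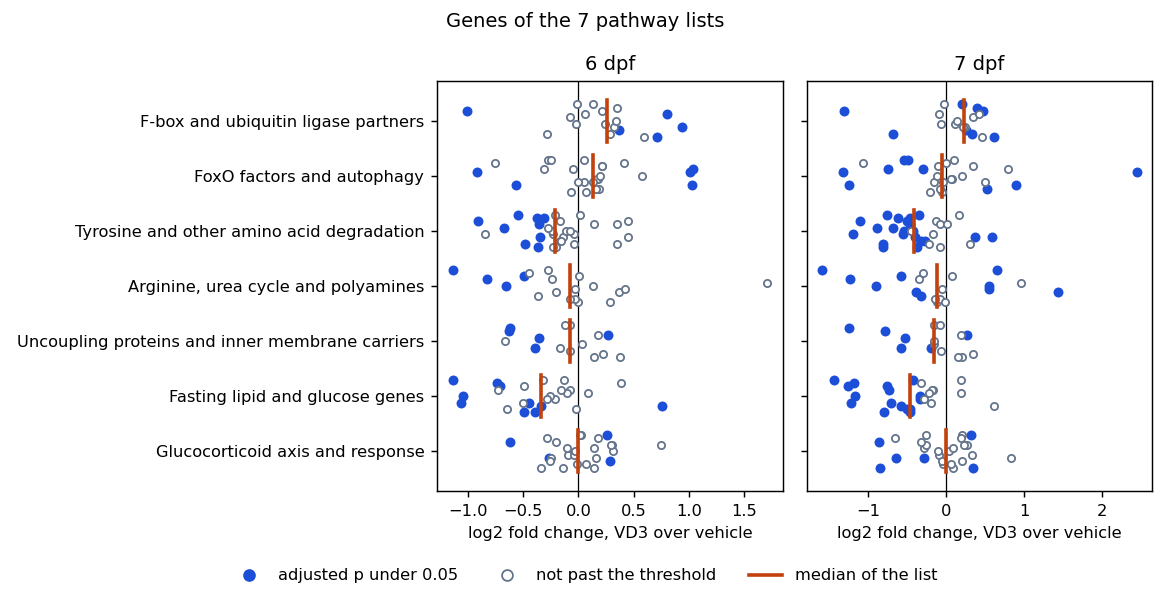
Log2 fold change of VD3 over vehicle at 6 and 7 dpf for every tested gene of the 7 pathway lists, filled where the adjusted p is under 0.05, with the median of each list as a bar. At 7 dpf the amino acid degradation list and the fasting lipid and glucose list lie mostly left of 0, with 19 and 16 genes lower, and the F-box list lies to the right with a median of 0.23.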

How the data were processed

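The authors deposited raw counts per gene and per exon, per the file headers with 1 column per library. The submitters' processing notes name CASAVA 1.4 and HTSeq 0.5.3p3 without roles; the aligner is not given in the sources used here. Libraries were poly-A selected with a kit that does not mark strand, per the labels' protocols. None of the 4 genes overlaps another in the reference tables, which are on the assembly GRCz12tu. Overlap in the Zv9 annotation was not examined. All columns were used. Groups are those of the labels. The exon table numbers VD3 libraries differently (replicate 5 of the gene table is number 1 there, replicates 1 to 4 are 2 to 5), matched through genes whose sums were equal in both tables and reached 50. By exon table numbers, correlations of deviations from the group means were above 0.1 in 5 of 5 pairs at 2, 4 and 6 dpf and 4 of 5 at 7 dpf (0.0793 to 0.862), against -0.582 to 0.677 by label numbers. Replicates differed beyond sampling noise (chi-square over its degrees of freedom 21.5 or more in all 80 within-group pairs).

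Each comparison used its own 10 libraries in edgeR 4.0.16 (R 4.3.3): filterByExpr, TMM, estimateDisp, robust glmQLFit, glmQLFTest, Benjamini-Hochberg over all genes tested, threshold 0.05, checked on simulated data. CPM use TMM factors over 40 libraries. The difference in response between ages used all 40 libraries. The members and lists were chosen with earlier results of these data known. Named were the 4 genes, 14 tested relatives and up to 4 genes per list by size of change at the latest age called, and per gene the 3 nearest courses over 8 groups. No genome or sequence table of the build was used. Alternatives were other factors (RLE, upper quartile, none), no filter and 1 CPM in 5 libraries, DESeq2 1.42.0, limma 3.58.1 voom, 1 fit of 40 libraries, both replicate blocks, no shallow libraries and leaving out each library.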

Additional observations from a re-analysis of the deposited data

Results flagged for a closer look

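In 8 of 32 groups of 5 libraries of the 4 genes, 1 library stood far from the other 4, by the gap to its nearest neighbour over the whole range on a log2 scale (limit 0.71). Chance flags about 1 in 20 groups. The 32 are the same 8 groups of libraries read through 4 genes. They are not independent, so the 8 flags are not set against that rate, and the share over all genes was not counted. Some libraries were flagged for more than 1 gene, and each flag fell on the shallow library of its group. It was the lowest for fbxo32 at 6 dpf in VD3 (0.823) and in vehicle (0.76), for arg2 at 7 dpf in vehicle (0.719), and for ucp1 at 4 and 6 dpf in VD3 (0.74 and 0.745) and at 6 and 7 dpf in vehicle (0.799 and 0.844). It was the highest for tat at 7 dpf in VD3 (0.788).

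For 22 of the 42 named genes the VD3 response differed between ages by edgeR's interaction test, each with an adjusted p under 0.05. Of all 13650 genes tested 7.79% passed. Up to 4 genes per list were named for the size of a called VD3 change in these same libraries. The count of 22 is therefore not set against that share. Among ligase and FoxO genes the adjusted p was 0.00195 for fbxo40.1, 0.00132 for ubb, 1.62e-05 for sesn2, 2.28e-06 for foxo3a and 0.000604 for sesn1. Among amino acid enzymes it was 0.0107 for gstz1, 0.0196 for haao, 0.0162 for kmo and 0.0199 for aldh4a1. Around arginine it was 9.9e-06 for agmat, 0.0163 for odc1, 5.22e-06 for sat1a.1 and 5.44e-05 for gamt. Carriers passed at 0.00446 for slc25a3a, 0.000144 for slc25a20, 0.0255 for slc25a6 and 0.0253 for slc25a4. Fuel and steroid genes passed at 0.000244 for gcga, 0.00708 for lpl, 0.000229 for pparaa, 1.22e-05 for fbp1a and 0.0129 for cyp17a1. Each changed more at 7 than at 2 dpf, which naming genes by their change at the latest age called favours.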

How the results depend on the processing

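None of the 59 VD3 calls among the 42 named genes changed direction under any alternative run. Over 576 alternatives of the 4 genes 1 moved by more than the replicate spread, fbxo32 at 2 dpf (-0.37 with voom). That spread is the within-group SD of log2 levels, shallow libraries included. For fbxo32 at 6 dpf the SD was 0.67 in vehicle and 0.82 in VD3, beside a log2 fold change of 0.79. The count therefore cannot show that changes of this size held. Of those 59 calls 49 held throughout and 10 were lost at least once, while 27 others passed at least once. Why calls changed was not tested. Up to 4 genes per list were named for large called VD3 changes in these same libraries. That favours calls that keep their direction and hold, so these counts do not measure how well results of whole lists held. VD3 calls at 4 dpf numbered 0 over all genes and 0 over list genes, against 103 and 5 with DESeq2, 30 and 2 with voom, 27 and 2 in 1 fit of all libraries, 18 without the shallow libraries, and 1255 and 25 with the exon table replicate block. At 6 dpf 1444 and 42 became 4297 and 88 with voom, 3532 and 88 without the shallow libraries, 3457 and 83 with that block, 2344 genes with no factors, 2202 with DESeq2 and 921 with the label number block. At 7 dpf 3866 genes became 8283 with voom, 7626 without the shallow libraries and 2517 with the label number block. The vehicle step from 4 to 6 dpf gave 4838 genes and 7427 with voom. That from 6 to 7 dpf gave 1618 genes and 34 list genes, against 4671 and 71 with voom, 3626 and 65 without the shallow libraries and 4404 and 76 with the replicate number as a block (numbers equal in both tables for vehicle libraries; their pairing across ages was not checked). Age differences in response gave 1064 and 33, against 3093 and 66 without the shallow libraries and 1686 genes with no factors. Leaving out 1 library gave 0 to 1 genes at 2 dpf, 0 to 9 genes and 0 to 1 list genes at 4 dpf, 849 to 2310 and 27 to 68 at 6 dpf (highest without VD3 replicate 5), 928 to 2683 and 21 to 48 for 6 to 7 dpf, and 832 to 1719 for the age differences. With no factors list medians turned sign for arginine genes (0.04 against -0.08 at 6 dpf, 0.05 against -0.11 at 7 dpf), carriers (0.04 against -0.07, 0.03 against -0.15) and FoxO genes at 7 dpf (0.13 against -0.05). By label numbers, VD3 and vehicle pairs did not all deviate together, so they share only a number. The exon table block added 13 named calls at 4 dpf and 6 at 6 dpf and lost 1 at 7 dpf (hpda).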
